A study of Homo sapiens with 36 samples.

Results

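A set of 10 genes that carry iron into the cell, store it, export it or sense it were followed in leukemia cells targeted for loss of LMO2, TAL1 or LDB1. The genes were chosen by name: TFRC, TFR2, HFE, FTH1, FTL, SLC40A1, SLC11A2, STEAP3, ACO1 and IREB2. All 10 were listed in each of the 3 deposited expression tables, among 60642 genes in the FPKM table, 57820 in the count table and 13707 in the TPM table. After the filters on low values 10 of 10 were left among 15348 genes in the FPKM table, 10 of 10 among 16688 in the count table and 9 of 10 among 12445 in the TPM table. HFE passed the FPKM filter through the degron lines, since no control-line library reached 1 FPKM, and it did not reach a TPM of 5.

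The series comprised 36 libraries of polyA RNA and asked about the complex of LMO2, LDB1 and TAL1, in which LMO2 is an adaptor, LDB1 a bridging protein and TAL1 a DNA-binding factor. The K562 degron set held 24 libraries of K562, a chronic myeloid leukemia line with erythroid features. It contained parental cells, an LMO2 control line and a pair of LMO2 degron cultures (rep 1 and rep 2 in the labels), which are treated as degron line 1 and degron line 2. Each was sampled at day 0 with no dTAGv1, and at day 1 and day 4 with dTAGv1, labelled as 750 uM, with 2 libraries per line and day (bio rep 1 and bio rep 2). dTAGv1 is a small molecule that joins a tagged protein to an E3 ubiquitin ligase, so that the tagged protein is degraded. The sources used here do not say what the LMO2 control cells carry or whether each degron line is 1 clone. The HEL set held 9 libraries of HEL, an erythroleukemia line, electroporated with a non-targeting siRNA, TAL1 siPool 1 or TAL1 siPool 2 (3 bio reps each). The LDB1 set held 3 K562 libraries with a control shRNA, LDB1 shRNA 1 or LDB1 shRNA 2 in the group labels, 1 library each and therefore with no test. The titles call the last 2 LDB1 shRNA rep 1 and rep 2, so the labels do not settle whether their shRNAs differ. They are named here by the group labels. The labels name no separate cultures behind the bio reps, so p-values measure the spread between these libraries. In bulk RNA, fewer cells of a type and less RNA per cell cannot be told apart.

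Cells take up iron by endocytosis of transferrin bound to the transferrin receptor TFRC; STEAP3 reduces the released iron and SLC11A2 carries it into the cytosol. Ferritin, a shell of FTH1 and FTL chains, stores what is not used, and SLC40A1 (ferroportin) exports it. ACO1 and IREB2 encode the iron regulatory proteins, which bind hairpins called iron-responsive elements when iron is low: binding near the start of an mRNA blocks its translation, and binding in the 3′ untranslated region of TFRC protects its mRNA from decay. Erythroid cells make very large amounts of TFRC because they need iron for heme.

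The iron-responsive elements are shown because they occur in some members on each of the uptake, storage and export sides and are known apart from these measurements. GENCODE v29 coding transcripts were searched on their own strand for a 17-base element: C, a stem of 5 bases, the 6-base loop CAGTGN, and 5 bases pairing with the stem (A-T, G-C or G-T). Matches lay in 4 of the 10 members, 3 with a match in the 5′ UTR and 1 with matches in the 3′ UTR. Among 19669 coding genes, 0.183% had a match in a 5′ UTR and 0.67% in a 3′ UTR. Each line gives 29 transcript bases centred on the element, 5′ to 3′, with the loop in capitals and T for U.
TFRC 3′ UTR, a: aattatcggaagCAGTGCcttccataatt
TFRC 3′ UTR, b: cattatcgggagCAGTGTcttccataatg
TFRC 3′ UTR, c: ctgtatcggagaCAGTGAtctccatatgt
TFRC 3′ UTR, d: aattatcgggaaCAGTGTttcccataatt
FTH1 5′ UTR: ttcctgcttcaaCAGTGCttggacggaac
FTL 5′ UTR: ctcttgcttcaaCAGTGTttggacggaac
SLC40A1 5′ UTR: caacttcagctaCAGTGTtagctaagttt
On GRCh38, which is not the build named for the deposited files, the TFRC elements a to d lie on the minus strand at chr3:196050985-196051001, chr3:196050581-196050597, chr3:196050516-196050532 and chr3:196050469-196050485. The FTH1 element lies at chr11:61967580-61967596 (minus strand), that of FTL at chr19:48965341-48965357 (plus strand) and that of SLC40A1 at chr2:189580667-189580683 (minus strand). The other 6 members gave no match, which says only that these letters are not in their UTRs as annotated. The search also gave no match in EPAS1 or CDC42BPA, counted below among mRNAs with a known iron-responsive element. A missing match therefore does not show that an mRNA lacks an element.

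As a first step the libraries were examined as a whole. HEL libraries held 15.9 M to 27 M counts. The reads recovered from the FPKM values came to 17.2 M to 26.3 M per library in the K562 degron set, and the depth of the LDB1 set is unknown. TAL1 RNA fell with siPool 1 (log2 change -1.38 ± 0.08 SE, edgeR adjusted p = 5.41e-06) and with siPool 2 (-1.31 ± 0.08, adjusted p = 1.03e-05), and LDB1 stood at 468 TPM with the control shRNA and at 62.4 and 69.6 TPM with the LDB1 shRNAs. A degron acts on the protein, and LMO2 RNA in the degron lines does not report on it. Mean day 0 LMO2 RNA (2 libraries each) was 34.8 FPKM for parental cells but 250 for LMO2 control cells, which are pooled below. Degron line 1 averaged 139 FPKM and degron line 2 averaged 146. LDB1 RNA changed by -0.89 ± 0.17 to day 4 in degron lines relative to control lines (limma adjusted p = 0.002). Against 131 TPM with the control shRNA, LMO2 RNA reached 44.2 TPM for LDB1 shRNA 1 and 46.2 for LDB1 shRNA 2. What these differences contribute to the member values was not tested. Of 9 erythroid markers, 9 reached a mean of 1 FPKM in K562 and 8 a mean of 1 CPM (counts scaled to library size) in HEL, and no hepatocyte marker did in either (0 of 4). Their summed FPKM was 462 to 1393 in control-line libraries, 481 to 881 in degron lines at day 0, 324.5 to 529 at day 1 and 156 to 269.5 at day 4. At day 0 limma called 1 of the 9 lower in the degron lines, GATA1 (-0.28 ± 0.09, adjusted p = 0.0393), and 5 lower with the replicate number as a block. At day 4 limma called 3 of the 9 lower (GATA1, KLF1 and HBZ) and 1 higher (EPOR), and 7 lower and 1 higher with the replicate number as a block. Of 6 monocyte and granulocyte markers, ITGAM and LYZ reached a mean of 1 FPKM in K562, and the sum of the 6 was 4.11 to 17.4 FPKM in control-line libraries, 26.5 to 36.9 in degron lines at day 0, 38.9 to 55.4 at day 1 and 93.5 to 118 at day 4. Of the 3 tested, limma called 2 higher at day 0 (ITGAM and LYZ). It called 3 higher in their further change to day 4: ITGAM (1.31 ± 0.22), LYZ (1.18 ± 0.36) and CSF3R (1.15 ± 0.19). CD14 reached at most 0.326 FPKM and MPO 0.139. The sum of 5 lymphoid markers was 9.2 to 42.8 FPKM in control-line libraries, 50.5 to 104.7 in degron lines at day 0, 80.2 to 144 at day 1 and 22.9 to 46.8 at day 4. Of these 5, limma called CD3D higher at day 0 (2.73 ± 0.32, adjusted p = 3.39e-05) and lower in its further change to day 4 (-1.88 ± 0.45, adjusted p = 0.00862); CD3E reached at most 0.417 FPKM and MS4A1 was at 0. ITGA2B, the 1 megakaryocyte marker tested, was called lower at day 0 (-1.01 ± 0.21, limma adjusted p = 0.00396). Of 2 fibroblast and stroma markers tested, limma called COL3A1 higher in its change to day 4 (1.09 ± 0.21, adjusted p = 0.00206). The marker values changed over the same days as the member values described next, but not all in 1 direction or at the same time. Their part in the member changes was not tested.

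In parental K562 cells at day 0 the members spanned a wide range of length-scaled levels. FTL stood highest, at 2435 and 1962 FPKM, followed by FTH1 at 864 and 532 and TFRC at 302 and 234. TFR2, a second transferrin receptor found in erythroid cells and liver, stood at 46 and 29 FPKM, and IREB2 at 13.8 and 15.4. SLC40A1 (11.2 and 8.6), ACO1 (8.1 and 8.16), STEAP3 (6.03 and 9.35) and SLC11A2 (7.09 and 4.69) lay close together and overlapped, and HFE was lowest at 0.2 and 0.401 FPKM. The order within the group from SLC40A1 to SLC11A2 is therefore not resolved by these libraries.

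**Figure D1:**
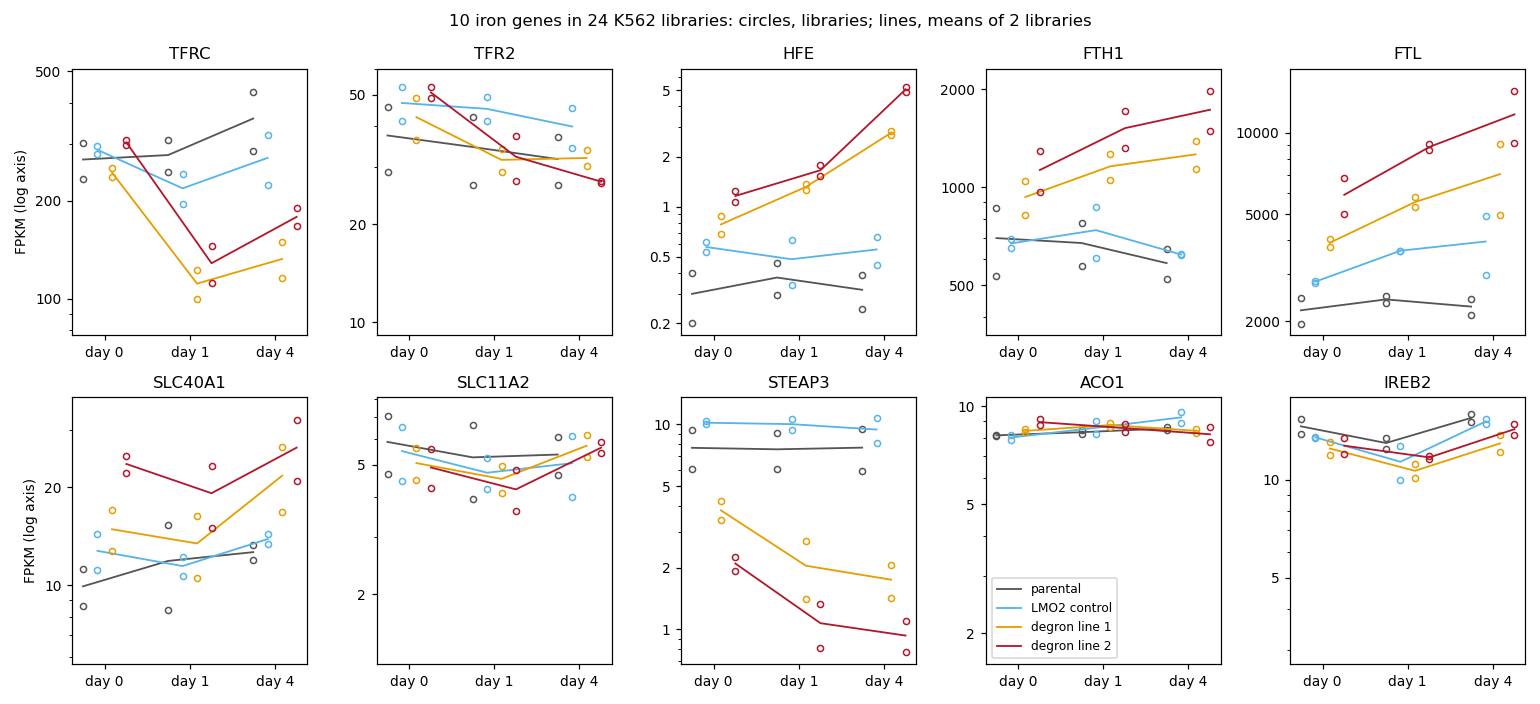
FPKM (log axis) of the 10 iron genes in the 24 K562 degron-set libraries by day; circles are libraries, lines join the means of 2 libraries, colours mark the 4 lines. In the degron lines TFRC lies lower at days 1 and 4 than at day 0 and HFE rises to day 4, STEAP3 lies below both control lines on all 3 days, and ACO1, IREB2 and SLC11A2 stay close together.

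Before any dTAGv1, the degron lines already differed from the control lines (parental and LMO2 control cells) in 5 of the 10 members. FTL, FTH1, SLC40A1 and HFE were higher and STEAP3 was lower: 4 of 10 higher, beside 10.6% of all genes tested, and 1 of 10 lower, beside 6.14%. HFE passed the filter only through degron libraries, where it is high, so its place in this count is no separate support. The median difference of the members was 0.12 on the log2(FPKM + 1) scale, beside 0.02 over all genes. This comparison used limma on log2(FPKM + 1), with Benjamini-Hochberg adjustment over all 15348 genes and an adjusted p under 0.05 as the call.

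The storage genes were higher at day 0. FTL was at 2435, 1962, 2835 and 2780 FPKM in the control lines and at 4049, 3776, 6774 and 5011 in the degron lines, so that the groups did not overlap. Here and below, such separation only describes the libraries and is given without its share over all genes. Its difference was 0.95 ± 0.2 SE (limma adjusted p = 0.0037), 1.93-fold. FTH1 was at 864, 532, 694 and 649.6 FPKM in the control lines and at 1047, 819, 1290 and 969 in the degron lines, with 1 degron library below the highest control. Its difference of 0.59 ± 0.18 passed in limma (adjusted p = 0.0377) but not after TMM rescaling (adjusted p = 0.0567) or with edgeR on recovered reads (adjusted p = 0.0512). Reads of FTH1 and FTL can be split with their processed copies, whose rows held 2.7% to 4.02% of the FTH1 family's reads and 1.23% to 1.72% of the FTL family's in K562, so the absolute levels of both are uncertain.

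The exporter SLC40A1 was at 11.2, 8.6, 14.4 and 11.1 FPKM in the control lines and at 16.96, 12.7, 25 and 22.1 in the degron lines. Its difference was 0.69 ± 0.22 (limma adjusted p = 0.0388), with degron line 2 above degron line 1 in both bio reps. HFE, a membrane protein that binds TFRC and takes part in iron sensing, was at 0.2 to 0.614 FPKM in the 4 control libraries and at 0.688, 0.879, 1.07 and 1.25 in the degron lines. Its difference was 0.46 ± 0.1 (limma adjusted p = 0.00376), at levels where the pseudocount of 1 compresses the scale; with a pseudocount of 0.1 it was 1.04. STEAP3, the endosomal ferrireductase, was at 6.03, 9.35, 10.4 and 10.03 FPKM in the control lines and at 3.41, 4.21, 1.92 and 2.27 in the degron lines, again without overlap. Its difference was -1.35 ± 0.19 (limma adjusted p = 0.00016), a fold of 0.394.

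TFRC did not differ between the lines at day 0 beyond its error, with 234 to 302 FPKM in control lines and 237 to 307 in degron lines (-0.02 ± 0.16, limma adjusted p = 0.948). TFR2 (0.16 ± 0.19), SLC11A2 (-0.15 ± 0.18), ACO1 (0.09 ± 0.06) and IREB2 (-0.15 ± 0.08) were not called either.

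In the control lines no member and no gene passed the test with dTAGv1 at either day: 0% of genes tested were called by limma at day 1 and 0% at day 4, while 657 and 509 genes had an unadjusted p under 0.05. TFRC in the control lines was 196 to 308 FPKM at day 1 and 225 to 431 at day 4.

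The degron-specific change was taken as the mean change from day 0 in the degron lines minus that in the control lines. At day 1 limma called 0 of 10 members, beside 0.0782% of all genes in either direction (12 genes, with 1069 at an unadjusted p under 0.05). At day 4 it called HFE as higher (1 of 10, beside 11.6% of all genes) and TFRC as lower (1 of 10, beside 8.18%). Because HFE entered the test only through degron libraries, where it is high, its count beside that share is no separate support. With edgeR on recovered reads 1179 of the 2647 genes called at day 4 were higher, against 1784 of 3040 in limma, and at day 1 it was 1 of 15, against 4 of 12 in limma and 2 of 10 after TMM rescaling. The medians over the 10 members were -0.03 and 0.04, beside 0.03 and 0.06 over all genes. K562 libraries with the same bio rep number deviated together, and with the number as a block limma called 1 member at day 1 (beside 1.09% of all genes, either direction) and at day 4 2 higher (beside 20.1%) and 2 lower (beside 15.6%).

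TFRC, the receptor for transferrin, had the most negative change among the members at both days on the log2(FPKM + 1) scale. Degron line 1 held 252.5 and 237 FPKM at day 0, 100.3 and 123 at day 1, and 149.7 and 116 at day 4. Degron line 2 held 307 and 298 FPKM, then 112 and 145, then 190.0 and 167. Each of the 8 treated degron libraries lay below each of the 16 other libraries, the lowest of which was 196 FPKM in the LMO2 control line at day 1. This describes the libraries, without the share of all genes that separate so. The change was -1.01 ± 0.23 at day 1 (limma adjusted p = 0.13, and 0.0352 with the replicate block) and -0.97 ± 0.23 at day 4 (adjusted p = 0.00757), a fold of 0.51. It was -1.04 ± 0.28 in degron line 1 alone and -0.91 ± 0.28 in degron line 2 alone at day 4, and -1.07 within bio rep 1 and -0.87 within bio rep 2. Leaving out single libraries kept it between -1.12 and -0.82.

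HFE moved the other way, with a larger change at day 4 than at day 1. In degron line 1 it went from 0.688 and 0.879 FPKM at day 0 to 1.37 and 1.26 at day 1 and 2.85 and 2.7 at day 4. In degron line 2 it went from 1.07 and 1.25 FPKM to 1.53 and 1.78 and then to 5.2 and 4.89. No control-line library exceeded 0.661 FPKM on any day. The degron-specific change was 0.34 ± 0.14 at day 1 (limma adjusted p = 0.567) and 1.28 ± 0.14 at day 4 (adjusted p = 2.54e-05). On less compressed scales the day 4 value was larger, 1.86 with a pseudocount of 0.1 and 1.89 with edgeR on recovered reads.

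STEAP3 and the ferritin chains came next in size. STEAP3 fell further below its day 0 level in the blocked fit: day 4 levels were 1.43 and 2.06 FPKM for degron line 1, and 0.77 and 1.09 for degron line 2, where the control lines held 5.95 to 10.8. Its degron-specific change was -0.62 ± 0.26 at day 1 (limma adjusted p = 0.635, and 0.0537 with the block) and -0.69 ± 0.26 at day 4 (adjusted p = 0.0797, and 0.00191 with the block). Day 4 also passed where the scale was less compressed, with edgeR on recovered reads (-1.15, adjusted p = 0.0314, beside -1.05 for TFRC) and with a pseudocount of 0.1 (-1.04, limma adjusted p = 0.0499).

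At day 4 FTH1 reached 1138 and 1386 FPKM in degron line 1, and 1491 and 1970 in degron line 2, against 522 to 647 in the control lines. Its degron-specific change was 0.69 ± 0.26 (limma adjusted p = 0.0742, and 0.0179 with the block). It was 0.45 within bio rep 1 and 0.94 within bio rep 2. Without the parental day 0 bio rep 2 library FTH1 (0.87, limma adjusted p = 0.0226) and STEAP3 (-0.83, adjusted p = 0.0386) both passed, and STEAP3 also passed without the parental day 4 bio rep 1 library (-0.84, adjusted p = 0.0424). FTL reached 4942 and 9119 FPKM in degron line 1, and 9166 and 14250 in degron line 2, on the same day. In the LMO2 control line the bio rep 2 library was also the higher one at day 4 (2974 and 4935 FPKM), and parental cells held 2112 and 2427. The change of FTL was 0.63 ± 0.28 (limma adjusted p = 0.13, and 0.075 with the block); without the degron line 1 day 4 bio rep 1 library it was 0.85 (adjusted p = 0.0341).

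The remaining 5 members were not called at either day. TFR2 stood at 27.1 to 37.4 FPKM in the degron lines at day 1 and at 26.8 to 33.8 at day 4, inside the control-line ranges of 26.4 to 49.0 and 26.5 to 45.6, with a change of -0.41 ± 0.26 at day 4 (limma adjusted p = 0.304). SLC40A1 stayed higher in the degron lines at day 4 (26.5, 16.8, 32.1 and 20.8 FPKM, against 11.9 to 14.4 in the control lines), but its further change was 0.09 ± 0.3 (limma adjusted p = 0.871). SLC11A2 (0.27 ± 0.25), ACO1 (-0.18 ± 0.09) and IREB2 (-0.01 ± 0.11) had small changes at day 4. ACO1 held between 7.75 and 9.56 FPKM in all 24 libraries, and IREB2 between 9.98 and 15.9.

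**Figure D2:**
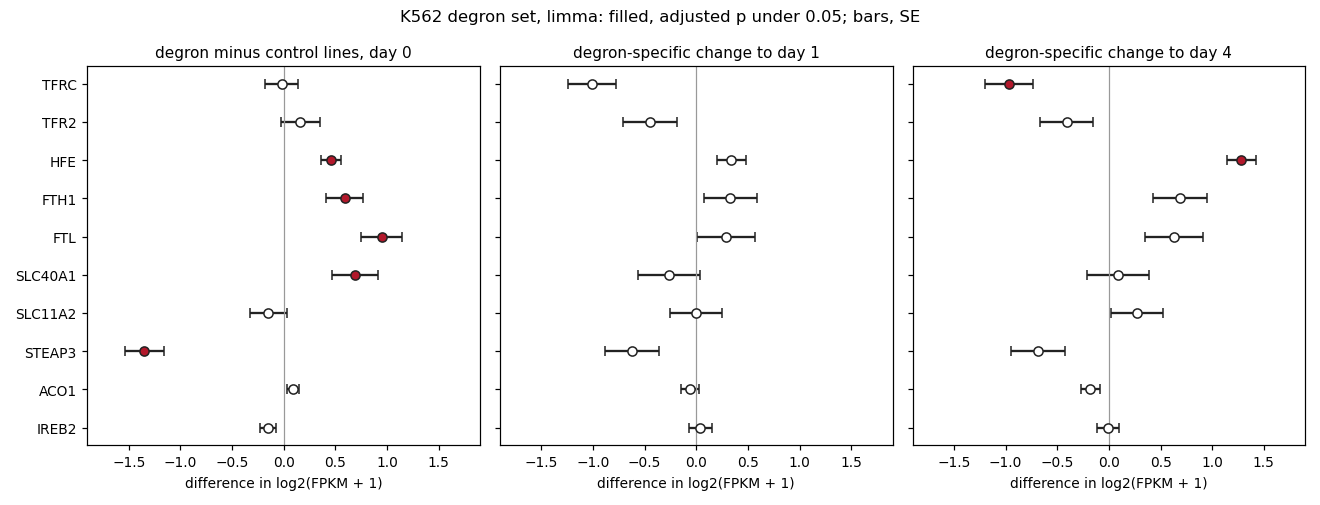
Difference in log2(FPKM + 1) for each of the 10 members in the K562 degron set (points, limma estimates; bars, SE; filled points, adjusted p under 0.05 without the block). The 5 points filled at day 0 are HFE, FTH1, FTL, SLC40A1 and STEAP3; none is filled at day 1, and TFRC (-0.97) and HFE (1.28) are at day 4.

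Between the degron lines limma called no member as different in the change to day 4. Over all genes 0.013% were called in either direction (2 genes by limma, with 471 at an unadjusted p under 0.05). For HFE the difference of line 2 minus line 1 was 0.4 ± 0.19, for TFR2 -0.49 ± 0.37 and for TFRC 0.13 ± 0.32. With errors of this size the values do not show that the lines changed alike.

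Across the means of the 12 line-by-day groups, the members fell into sets that ran together. FTH1 and FTL had a Pearson r of 0.95, HFE with FTL 0.92, HFE with FTH1 0.91 and SLC40A1 with FTL 0.87. STEAP3 ran opposite to them, with -0.97 against FTH1 and -0.89 against FTL, and TFRC had -0.74 against FTH1 and 0.7 with STEAP3. The groups share lines and libraries, and the level differences between lines at day 0 enter these values, so they are given as a description without a p. Among 7402 genes with a mean of at least 5 FPKM, the ones most like TFRC over the 12 groups were AGPAT5 (r = 0.939), IQCB1 (0.932) and NEU3 (0.929). Those most like HFE among 7403 were MYD88 (0.992), HTT (0.99) and PNPLA6 (0.989).

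**Figure D3:**
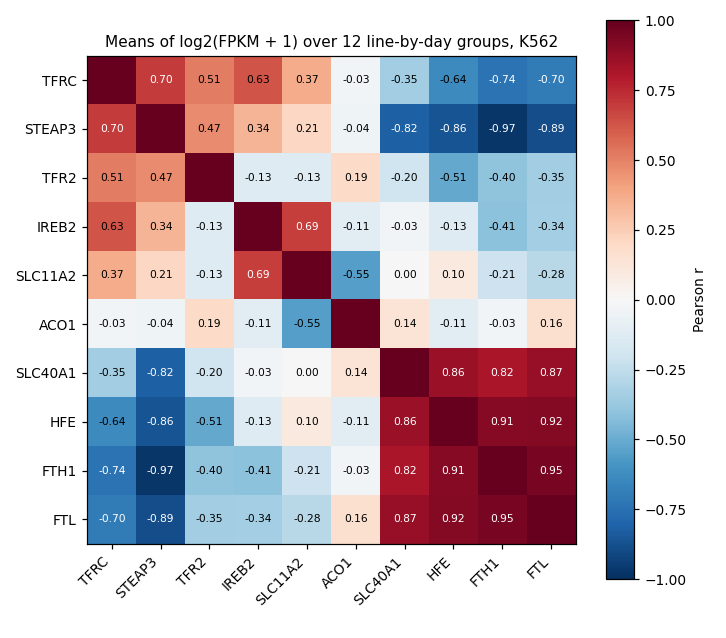
Pearson r between members over the 12 line-by-day means of log2(FPKM + 1) in K562 (red positive, blue negative). FTH1, FTL, HFE and SLC40A1 form a block of r from 0.82 to 0.95, and STEAP3 has r from -0.97 to -0.82 against them.

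Other genes of iron handling were counted for context. Of 28 other iron genes 15 were tested in the FPKM table. At day 4 limma called 1 higher and 2 lower (4 and 5 with the replicate block), with a median of -0.02. NDFIP1, an adaptor of ubiquitin ligases that act on SLC11A2, rose by 0.77 ± 0.1 (adjusted p = 0.000126). SLC39A8, a metal ion importer, fell by 0.96 ± 0.2 (adjusted p = 0.0044), and GLRX3, which handles iron-sulfur clusters, fell by 0.75 ± 0.23 (adjusted p = 0.0339). The GLRX3 call was lost in 10 of 16 fits with 1 library left out, with adjusted p up to 0.0836. At day 0 limma called 6 higher and 1 lower, the lower one being SLC39A8 (-1.62 ± 0.14, adjusted p = 3.1e-06). With the replicate block it was 7 higher and 2 lower, with FBXL5 (0.25, adjusted p = 0.0103) and SLC39A14 (-0.5, adjusted p = 0.00605) added. The ferroxidase HEPH (0.95 ± 0.17, adjusted p = 0.001), HERC2 (0.49 ± 0.09, adjusted p = 0.00195) and HJV, a BMP co-receptor that promotes hepcidin expression (1.7 ± 0.41, adjusted p = 0.00972) were among those higher. Of 5 other mRNAs with a known iron-responsive element, limma called none at day 4, and 2 higher and 1 lower at day 0: EPAS1, the transcription factor HIF-2 alpha (2.26 ± 0.23, adjusted p = 9.42e-06), CDC42BPA (0.59 ± 0.14, adjusted p = 0.00948) and CDC14A (-0.29 ± 0.09, adjusted p = 0.0316).

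In HEL cells with TAL1 knockdown SLC40A1, the exporter, was the member called with each pool. With siPool 1 edgeR called 1 of 10 members higher (beside 2.56% of all genes) and 0 lower (beside 1.65%). With siPool 2 it called 1 of 10 higher (beside 0.491%) and 0 lower (beside 0.563%). The member medians were -0.01 and -0.08, beside -0.02 and -0.01 over all genes. The pools share their non-targeting libraries, so each pool's values are given side by side.

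SLC40A1 was at 275, 284 and 271 CPM with the non-targeting siRNA. It was at 402, 370.3 and 361 CPM with siPool 1 and at 376, 395 and 362 CPM with siPool 2. Every knockdown library thus lay above every control, which is given as a description, without its share over all genes. The log2 change was 0.45 ± 0.07 with siPool 1 (edgeR adjusted p = 0.0045) and 0.45 ± 0.07 with siPool 2 (adjusted p = 0.0123), in both cases 1.37-fold. The siPool 2 call was lost without the siPool 2 bio rep 2 library (adjusted p = 0.0938) or the non-targeting bio rep 3 library (adjusted p = 0.0866).

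The other members stayed within smaller differences in HEL. TFRC was at 2007, 1685 and 1645 CPM with the non-targeting siRNA, at 1618, 1398 and 1344 with siPool 1 and at 1723, 1713 and 1481 with siPool 2. Its change was -0.29 ± 0.1 with siPool 1 (edgeR adjusted p = 0.127) and -0.12 ± 0.1 with siPool 2 (adjusted p = 0.714), and without the filter on low counts the siPool 1 value passed (-0.28, adjusted p = 0.0341). The iron regulatory protein gene IREB2 was at 200.2 to 242.5 CPM with the non-targeting siRNA and at 167 to 185 with siPool 1 (-0.3 ± 0.11, edgeR adjusted p = 0.144). With siPool 2, ACO1 changed by -0.26 ± 0.09 (edgeR adjusted p = 0.27) and STEAP3 by -0.26 ± 0.11 (adjusted p = 0.361). ACO1 was at 106.5 to 113.8 CPM with the non-targeting siRNA, 97.7 to 103 with siPool 1 and 83.4 to 104.3 with siPool 2. Every knockdown library of ACO1 thus lay below every control, with no call in the main fit. That separation only describes these libraries and is given without its share over all genes. With the replicate number as a block, edgeR called TFRC and IREB2 lower with siPool 1 (among 2888 genes called). TFR2, STEAP3 and ACO1 were called lower with siPool 2 (among 1694).

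The ferritin chains were not called in HEL. FTL was at 697 to 779 CPM with the non-targeting siRNA, 703 to 775 with siPool 1 and 707 to 749.8 with siPool 2. FTH1 changed by -0.11 ± 0.08 with siPool 1 and by 0.15 ± 0.08 with siPool 2, and the difference of siPool 2 minus siPool 1 was 0.26 ± 0.08 (edgeR adjusted p = 0.114). Between the pools edgeR called 0 of 10 members, beside 2.76% of all genes in either direction. Without the block TFR2 and SLC11A2 were not called with either pool. HFE had 8 to 36 counts per library and was highest in bio rep 1 and lowest in bio rep 3 in each of the 3 groups.

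**Figure D4:**
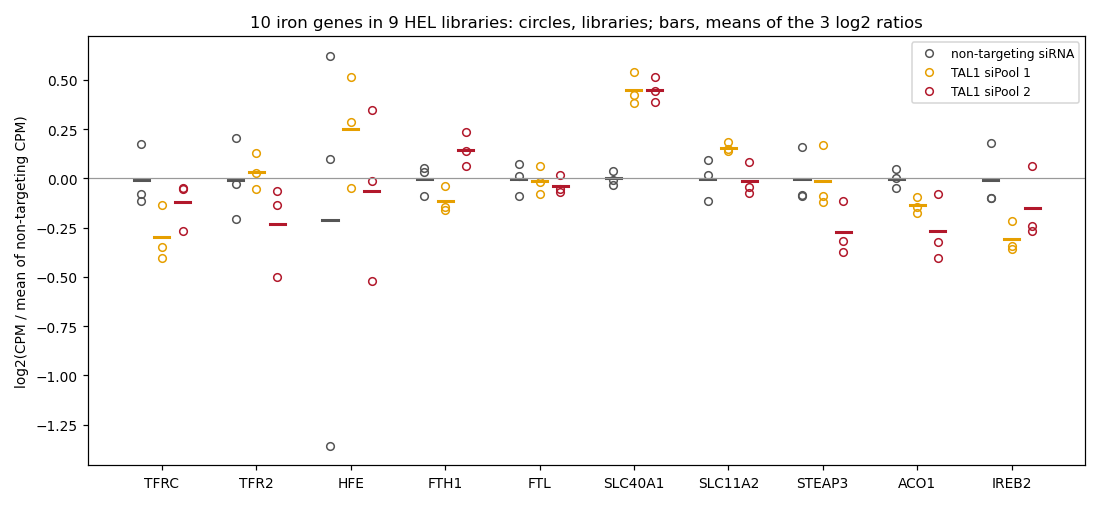
Levels of the 10 members in 9 HEL libraries as log2 of CPM over the mean non-targeting CPM (circles, libraries; bars, means of the 3 log2 ratios). SLC40A1 is the member whose 6 knockdown libraries all lie above its 3 controls, and ACO1, which was not called, the member whose 6 all lie below. The share of all genes that separate so is not given. HFE spreads widely, with 8 to 36 counts per library.

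Summed erythroid markers in HEL were 2803 to 3262 CPM with the non-targeting siRNA, 1323 to 1715 with siPool 1 and 1654 to 1863 with siPool 2; their part in the SLC40A1 change, and that of the marker lists given next, was not tested. Summed megakaryocyte markers were 944 to 1307 CPM, 1108 to 1370 and 925 to 1477, respectively. Most of that sum was ITGA2B, with means of 995, 1082 and 1004 CPM. Of the 5 megakaryocyte markers edgeR called 1 higher with siPool 1 and 0 with siPool 2. VWF averaged 0.723, 2.98 and 1.24 CPM in the same order, and GP9 77, 56.2 and 72.3. Summed monocyte and granulocyte markers were 34.6 to 37.2 CPM with the non-targeting siRNA, 56.3 to 62.8 with siPool 1, where edgeR called ITGAM (1.57 ± 0.16, adjusted p = 0.000177) and LYZ (0.42 ± 0.09, adjusted p = 0.0218) higher, and 34.9 to 37.2 with siPool 2, where it called none. Of the 28 other iron genes 18 were tested in HEL. With siPool 1 edgeR called 1 higher, the ligand BMP6 (0.75 ± 0.12, adjusted p = 0.00375), and 2 lower, NDFIP1 (-0.55 ± 0.09, adjusted p = 0.00547) and SLC39A8 (-0.34 ± 0.08, adjusted p = 0.0305). With siPool 2 it called NDFIP1 lower (-0.44 ± 0.09, adjusted p = 0.0432) and none higher. Among the 5 other mRNAs with a known iron-responsive element, EPAS1 rose with siPool 1 (2.16 ± 0.17, edgeR adjusted p = 2.56e-05) and with siPool 2 (1.26 ± 0.17, adjusted p = 0.00407), and CDC42BPA rose with siPool 1 (0.52 ± 0.09, adjusted p = 0.00711). ALAS2, which starts heme synthesis in erythroid cells, fell by 1.09 ± 0.2 with siPool 1 (adjusted p = 0.00966) and by 1.2 ± 0.21 with siPool 2 (adjusted p = 0.0151). With 1 library left out, the SLC39A8 call was lost in 6 of 6 fits (adjusted p 0.0691 to 0.117) and the siPool 2 call of NDFIP1 in 5 of 6, all but the one without non-targeting bio rep 1. The ALAS2 call was lost in 2 of 6 for siPool 1 (without non-targeting or siPool 1 bio rep 3) and in 3 of 6 for siPool 2 (without non-targeting bio rep 2 or 3, or siPool 2 bio rep 2), with adjusted p of 0.0536 to 0.0858 in those fits.

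In the LDB1 set the transferrin receptors had the largest falls among the members. With 1 library per group label, a gene was counted where the log2 ratio of (TPM + 1) to the control was at least 1 in size with the same sign in both LDB1 shRNA libraries and its highest TPM was at least 5. By that rule 1 of 9 members was lower, beside 2.21% of all genes, and 0 of 9 were higher, beside 8.94%. The median over the 9 members was -0.07, and over all genes 0.18 with shRNA 1 and 0.13 with shRNA 2.

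TFR2 was at 222 TPM with the control shRNA, 67.3 with LDB1 shRNA 1 and 93.4 with LDB1 shRNA 2, log2 ratios of -1.71 and -1.24. TFRC was at 631 TPM with the control shRNA, 310.0 with shRNA 1 and 345 with shRNA 2, log2 ratios of -1.02 and -0.87. TFRC fell just short of the fold with shRNA 2, and passed it when the median ratio of all genes was set to 0. HFE was at 0.653 TPM with the control shRNA and at 4.63 and 3.19 with the LDB1 shRNAs, log2 ratios of 1.77 and 1.34 at levels under the TPM minimum (mean 1.56, and 2.39 with a pseudocount of 0.1).

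STEAP3 was at 27.6 TPM with the control shRNA and at 18.7 and 16.7 with the LDB1 shRNAs. SLC11A2 was at 19.7 TPM with the control shRNA and at 14.4 and 14.9 with the LDB1 shRNAs. The storage chains were higher in both shRNA libraries by less than the fold, FTH1 at 3533, 4268 and 4530 TPM and FTL at 8360, 9407 and 10360 in the order control, shRNA 1, shRNA 2. SLC40A1 (47.5, 51.2 and 40.04 TPM), ACO1 (18.5, 22.4 and 22.8) and IREB2 (32.1, 38.8 and 37.2) differed little, in the same order. With the median ratio of all genes set to 0, the mean log2 ratio was 0.14 for FTH1, 0.06 for FTL, 0.09 for ACO1 and 0.06 for IREB2. Of the 28 other iron genes 15 were listed, with 2 higher and 1 lower: BMP6 went from 0.381 to 27.5 and 24.6 TPM, HJV (listed as HFE2) from 10.2 to 136.5 and 105, and SLC39A8 from 39.8 to 12.1 and 12.8. Of the 4 other mRNAs listed that carry a known iron-responsive element, EPAS1 was higher, from 8.64 to 25.5 and 32.9 TPM. Of 9 erythroid markers 5 were lower by the same rule and none higher. Markers of other cells were higher by it too: ITGAM (12 TPM with the control shRNA, 38.7 and 36.8 with the LDB1 shRNAs), CD3D (27.5, 173.8 and 185.2) and COL1A1 (2.83, 8.38 and 9.21). Their part in the member values was not tested.

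**Figure D5:**
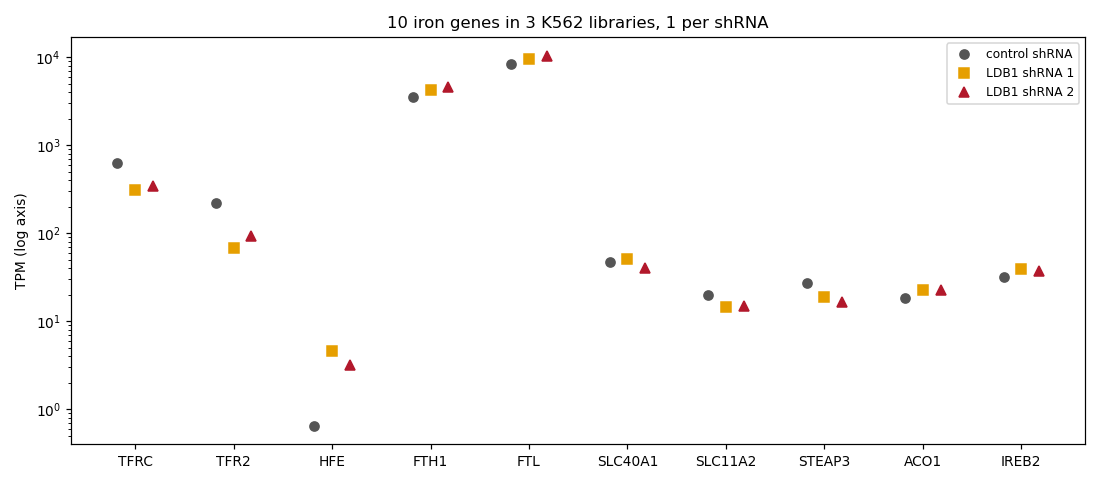
TPM (log axis) of the 10 members in the 3 K562 libraries with a control shRNA, LDB1 shRNA 1 or LDB1 shRNA 2, 1 library each. TFR2 (222, 67.3 and 93.4 TPM) and TFRC (631, 310.0 and 345) lie lower with both LDB1 shRNAs, HFE lies higher, STEAP3 lies lower by less than the fold (27.6, 18.7 and 16.7 TPM), and the other 6 members lie closer to the control.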

How the data were processed

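Expression in the K562 degron set was deposited by the authors as FPKM, in HEL as raw counts per gene, and in the LDB1 set the authors deposited TPM. FastQC, STAR, featureCounts and hg19 are named per the submitters' processing notes; the sources used here give neither versions, annotation nor strand setting. K562 and HEL libraries came from different providers, per the labels' protocols, and each test stayed within 1 table. Members and lists were chosen with earlier results of these data known.

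FPKM entered as log2(FPKM + 1), keeping genes that reached 1 FPKM in 2 or more libraries. A linear model of 12 line-by-day groups was fitted with limma 3.58.1 under R 4.3.3 (trend and robust). A pseudocount of 1 understates changes of low genes. For HEL counts, edgeR 4.0.16 was used (quasi-likelihood test, TMM, filterByExpr) in 1 fit of 9 libraries. Calls are Benjamini-Hochberg adjusted p under 0.05 over all genes tested; errors are SE. Whole reads were recovered from the FPKM: 100.0% of values were within 0.05 of a whole number. A rerun of edgeR on them called 3 of 10 members at day 4, among 2647 of 15348 genes called. In K562 the deviations of same-numbered libraries from their group means correlated in all 66 pairs of groups (r 0.12 to 0.66, median 0.38), so the number was taken to pair them, and blocked values are given where they change a call. The fits were also run on simulated data with independent noise in each library, without the shared deviations of same-numbered libraries. That simulation therefore cannot show how those deviations affect the unblocked fits. Named were the members, the targeted genes, up to 4 called genes per list and comparison by smallest adjusted p, and the 3 genes most like each member called at day 4.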

Additional observations from a re-analysis of the deposited data

How the results depend on the processing

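TFRC and HFE kept their day 4 calls and directions under all alternatives run for that comparison, and SLC40A1 kept its rise with both HEL pools, its siPool 2 call being lost in 2 of 6 fits with 1 library left out (members called 0 to 1). Over the alternatives for single genes, 639 values counted as the same, 36 calls were lost, 19 were gained, 8 untested ratios of the LDB1 set moved and 14 values, none of them called, changed sign. Tested values counted as the same if they kept direction and side of the threshold. Untested LDB1 ratios did so if they shifted by no more than the SD of the 2 shRNA ratios. With the replicate number as a block, calls rose at day 1 to 167 genes and 1 member, at day 4 to 5471 genes and 4 members, at day 0 to 4729 genes and between degron lines to 4 genes. In HEL same-numbered libraries correlated at r = 0.09 to 0.36 over 9 pairs (median 0.12) and others at -0.26 to 0.21 (median -0.16). The same-numbered values were all positive, as in K562, but the ranges overlapped, so whether the numbers pair the HEL libraries was left undecided. The block gave 2888 genes and 3 members with siPool 1 (TFRC and IREB2 added), 1694 genes and 4 members with siPool 2 (TFR2, STEAP3 and ACO1 added), and 2431 genes and 4 members between pools. Leaving out the replicate 1 libraries of HEL, chosen after seeing the data, gave 2705 and 1652 genes and 3 and 3 members for the pools, DESeq2 gave 1186, 452 and 914 genes (the last between pools), no filter 1084 and 418 genes and 2 members with siPool 1, and the fit of 2 groups alone 100 genes with siPool 2. With 1 library left out, siPool 1 called 279 to 722 genes and siPool 2 35 to 296. In such fits day 1 called 1 to 12 genes and day 4 2 to 4 members, given without the share of all genes. The main fits tested 15348 genes in K562 and 16688 in HEL, beside 10 members. Member counts are therefore not read apart from the gene counts beside them. Day 1 called 40 genes without the filter, 0 with parental cells as the only control, 0 with degron line 1 alone and 5 with degron line 2 alone; day 4 called 1763 genes with parental cells only and 1398 with degron line 1 alone. Between the degron lines 1 gene was called with a pseudocount of 0.1 and 0 with edgeR on recovered reads, also chosen after seeing the data. At day 4, SLC40A1 was -0.01 with parental cells only, -0.09 with degron line 2 alone and -0.07 to 0.25 with 1 library left out, and IREB2 0.02, 0.04 and -0.05 to 0.03. At a log2 threshold of 0.5 the LDB1 set had 4172 genes and 3 members, and with the median ratio set to 0 it had 2 members. The cause of these shifts was not tested. HFE lies near the detection floor in control lines and HEL, and the LDB1 set has 1 library per group label and unknown depth, which limits what its values can show.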
